A study of Mus musculus with 38 samples.

Results

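Glycolysis and the response to low oxygen were followed through 34 genes in 13 populations of sorted mouse myeloid cells. The genes were taken by name, with the brightest probe set of each symbol over all arrays, and 31 of the 34 were measured among 19937 genes tested. Gapdh was left out because each of its probe sets carries several symbols, Gpi1 and Eno1 were not analysed here, and Ero1l is given under its current symbol, Ero1a. RNA was measured on 38 Affymetrix Mouse Gene 1.0 ST arrays. A population has 3 arrays, each from a separate pool of mice; for P1 cells after DNFB there are 2.

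All mice were wild-type C57BL/6 females aged 6 weeks, and no group carries a transgene or deletion. Treated mice received 10 µl of 0.5% 2,4-dinitrofluorobenzene (DNFB), a hapten that sensitises skin, on the ears 3 days before harvest; the others are at steady state. Blood monocytes were gated as Ly6Chi CD11b+. In ear dermis, P1 cells are CD64low, Ly6Chigh, CCR2+ and MHC II negative, P2 cells are CD64+, Ly6Chigh, CCR2+ and MHC II+, and P3 cells are CD64+, Ly6Clow, CCR2+ and MHC II+. P4 and P5 are CD64+ cells without Ly6C or CCR2, MHC II negative in P4 and MHC II+ in P5. Dermal dendritic cells (DC) lack CD24, Ly6C and CD64 and carry MHC II. From lymph node came migratory DC (CD11c+, MHC II high, CD11b+, CD24-, CD64-), called node DC here, and CD64+ cells after DNFB, whose fields name them as non-DC, as monocytes and as DC in turn; they are called node CD64+ cells. P1, P2 and dermal DC were sorted in both states, as were node DC. Skin and node were digested with different enzymes, so tissue and digestion cannot be told apart.

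Glycolysis splits glucose into pyruvate in the cytosol, and pyruvate is then either reduced to lactate or burned in mitochondria. The transcription factor HIF-1, whose alpha subunit is encoded by Hif1a, raises many glycolytic genes when oxygen is low; prolyl hydroxylases (Egln1, Egln3) mark the subunit for destruction when oxygen is present. In myeloid cells HIF-1 also responds to inflammatory signals, and its control is largely at the protein level, which these arrays do not measure.

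Levels below are log2 intensities as deposited, and a level of 1 gene is never set against that of another. A difference is first group minus second on the log2 scale, with its standard error (SE). A gene is said to rise or fall at an adjusted p under 0.05 in limma, adjusted over the 19937 genes. A level under 4.02, the 40th percentile of all values, is low signal. In bulk sorts, fewer cells holding an RNA and less RNA per cell cannot be told apart.

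Lists of markers checked the sorts. The monocyte list (9 genes) had its highest array means in blood (10.73 to 10.81) and in P1 before (10.13 to 10.40) and after DNFB (10.57 to 10.73). The macrophage list (11 genes) was highest in P4 (10.67 to 10.92) and P5 (10.40 to 10.83), and was also at 8.19 to 8.53 in dermal DC at steady state. The dendritic cell list (10 genes) was highest in dermal DC, at 7.92 to 8.04 before and 8.66 to 8.99 after DNFB. Markers of other skin cells were also detected in the dermal sorts. The keratinocyte list (14 genes) lay at 4.11 to 4.23 in blood, 4.14 to 4.48 in the node populations and 6.29 to 7.88 in dermal populations at steady state. The fibroblast list (11 of 12 genes) lay at 6.20 to 9.98 in P1 and 7.83 to 8.03 in P2, against 4.07 to 4.20 in blood.

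Because HIF-1 binds short DNA motifs, the promoters of the genes were searched for the 2 core sequences ACGTG and GCGTG on both strands. The windows, from RefSeq with build GRCm38.p6, run from 250 bases before to 50 after each transcript start, and 30 of the 31 genes have at least 1 (42 windows in all; Bnip3l is without one). ACGTG was in a window of 22 of 30 genes (73.3%), against 21.8% of all 27025 genes with windows and 23.2% of protein-coding ones. GCGTG was in 20 of 30 (66.7%), against 35.2% of all genes, and either motif in 28 of 30 (93.3%), against 46.7%. Tpi1 and Eno2 held neither. The genes were listed partly as known targets, so these shares describe the list and are no finding of the arrays. Below are 100 bases of 9 promoters whose genes carry the expression results, each ending next to the transcript start except Pgk1, which spans 160 to 61 bases before it. Capitals mark the motif letters; a motif on the other strand reads CACGT or CACGC.
Slc2a1 (chr4:119108645-119108744, + strand): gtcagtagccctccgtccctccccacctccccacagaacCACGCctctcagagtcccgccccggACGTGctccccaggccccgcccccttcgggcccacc
Slc16a3 (chr11:120948967-120949066, + strand): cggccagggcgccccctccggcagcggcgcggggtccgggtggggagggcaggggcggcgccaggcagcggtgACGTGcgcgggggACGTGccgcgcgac
Hk2 (chr6:82774455-82774554, - strand): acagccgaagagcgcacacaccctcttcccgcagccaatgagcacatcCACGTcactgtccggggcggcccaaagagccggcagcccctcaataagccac
Ldha (chr7:46845704-46845803, + strand): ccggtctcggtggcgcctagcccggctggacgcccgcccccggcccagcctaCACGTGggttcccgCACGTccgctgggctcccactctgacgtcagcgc
Pgk1 (chrX:106186940-106187039, + strand): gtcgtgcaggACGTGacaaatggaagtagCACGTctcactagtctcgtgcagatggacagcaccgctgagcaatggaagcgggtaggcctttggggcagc
Vegfa (chr17:46032378-46032477, - strand): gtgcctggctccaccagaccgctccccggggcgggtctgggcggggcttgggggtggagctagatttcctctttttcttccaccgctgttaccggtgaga
Pfkfb3 (chr2:11553930-11554029, - strand): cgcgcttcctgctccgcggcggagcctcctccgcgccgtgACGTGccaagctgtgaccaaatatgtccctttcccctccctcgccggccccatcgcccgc
Adm (chr7:110627557-110627656, + strand): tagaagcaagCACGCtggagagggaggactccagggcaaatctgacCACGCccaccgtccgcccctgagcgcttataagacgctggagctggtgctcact
Eno2 (chr6:124769674-124769773, - strand): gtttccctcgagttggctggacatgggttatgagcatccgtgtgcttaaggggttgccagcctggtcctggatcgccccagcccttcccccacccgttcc

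Genes with very different behaviour share the motif in these stretches. Slc16a3 and Ldha hold ACGTG more than once, as does Pgk1, and Pfkfb3, which runs opposite to Slc2a1 in the lymph node, holds it too. The stretches of Eno2 and of the first Vegfa window have no match, and Adm has GCGTG only. A match is a description of letters, not a binding site.

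Most of the genes varied between populations. By the F test over the 13 populations 25 of 31 genes passed, against 40.1% of all genes tested. The range between the highest and the lowest population mean was largest for Vegfa (4.70, or 26.1-fold), the growth factor for blood vessels, which ran from 10.66 in P1 after DNFB to 5.96 in node CD64+ cells. Pfkfb3, which makes the activator of phosphofructokinase, followed with 4.45, from 11.33 in node DC to 6.88 in blood. The aldolase gene Aldoc spanned 3.94, the lactate exporter Slc16a3 3.84, the glucose transporter Slc2a1 3.65, the vasodilator peptide gene Adm 3.63, the enolase gene Eno2 3.15 and the hexokinase gene Hk2 2.80. At the other end, Hk1, the hexokinase of most resting cells, spanned 0.33 (F test adjusted p = 0.844). Tpi1, Pfkl, Pfkm, Pfkfb4 and Pdk1 also did not pass. The 2 probe sets of Hk1 disagree (r = -0.26 over 13 population means), so its flat profile is that of the brighter one. Egln3 was below 4.02 in 10 of 13 populations.

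**Figure D1:**
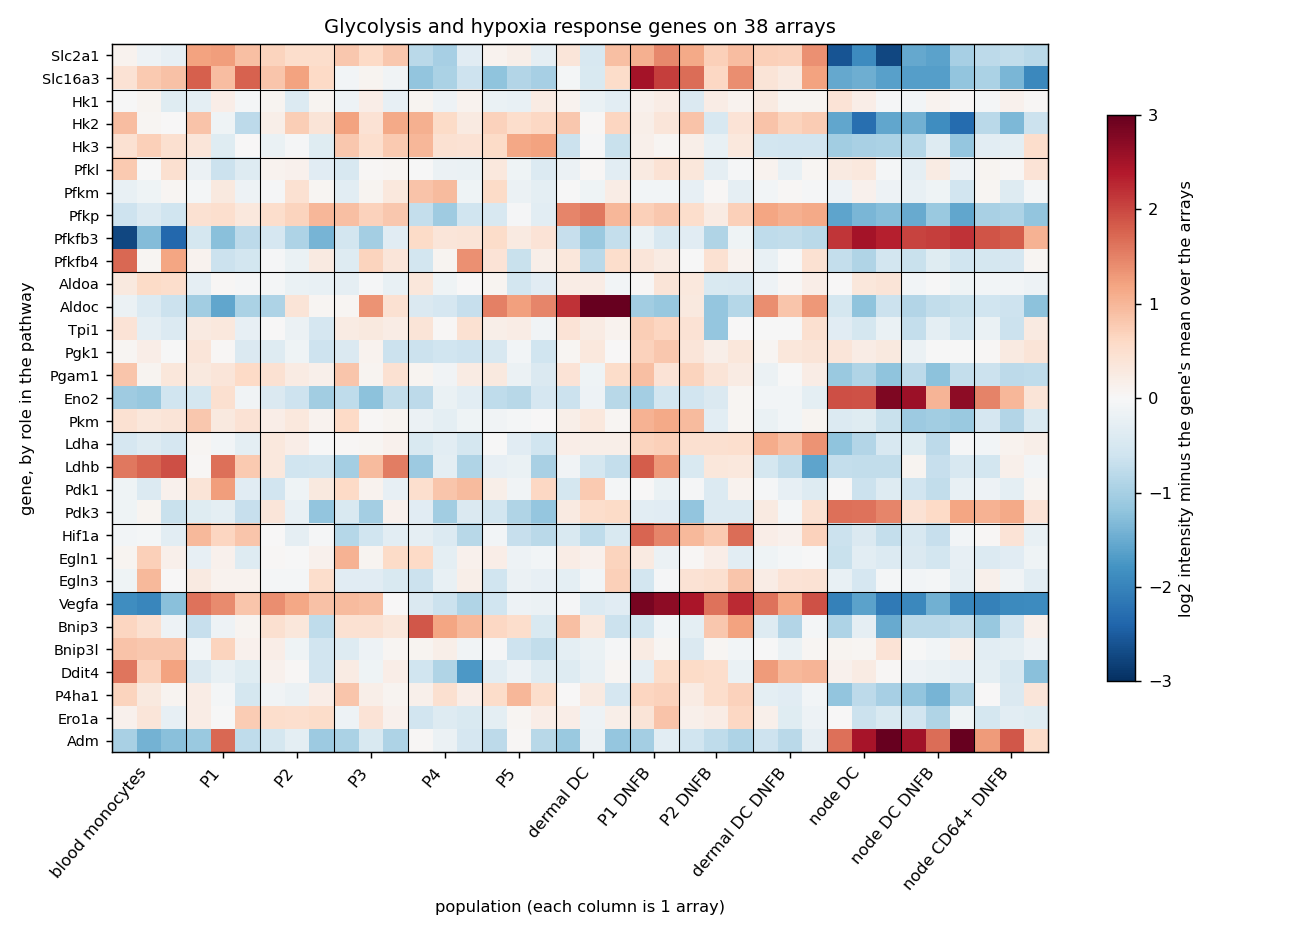
Each row is 1 of 31 genes, ordered by role, and each column 1 of 38 arrays, ordered by population; colour gives the log2 intensity minus the gene's mean over the arrays. Vegfa, Slc2a1 and Slc16a3 are above their means in P1 and P2 and below in the 9 node arrays, where Pfkfb3, Adm and Eno2 are above theirs, and Hk1 stays near its mean.

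Comparing dermal P1 cells with blood monocytes asks what differs between Ly6Chigh monocytes of skin and of blood. P1 cells held more RNA for the vessel growth factor Vegfa, for glucose uptake and for the platelet-type phosphofructokinase Pfkp. They held less for the stress gene Ddit4, which restrains mTORC1. Of the 31 genes 5 rose and 5 fell (32.3%, against 12.6% of all genes, 5.21% higher and 7.43% lower), and the median difference was -0.01, against 0.01 for all genes. Vegfa was at 6.04, 5.94 and 6.63 in blood and at 9.53, 9.31 and 8.72 in P1. It rose 7.89-fold (2.98, SE 0.25, adjusted p = 1.245e-09), the widest separation of this comparison. Slc2a1, which encodes the transporter GLUT1, was at 8.20, 7.94 and 7.84 in blood and at 9.29, 9.34 and 8.99 in P1 (1.21, SE 0.25, adjusted p = 0.00141). Hif1a was at 7.95, 7.95 and 7.70 in blood and at 9.0, 8.67 and 8.86 in P1 (0.98, SE 0.22). All P1 arrays lay above all blood arrays for these 3 genes. They are named for their calls on the same arrays, so this adds no support.

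At the phosphofructokinase step, which commits glucose to glycolysis, isoforms were called in different directions, though several of these calls ended in other fits. Pfkp rose by 0.97 (SE 0.16), with arrays at 7.81, 7.83 and 7.65 in P1 against 6.72, 6.92 and 6.73 in blood. The liver-type Pfkl fell by 0.82 (SE 0.21), and Pfkm did not pass (0.13, SE 0.23). Of the enzymes that make and remove the activator fructose 2,6-bisphosphate, Pfkfb3 rose by 1.28 (SE 0.27) and Pfkfb4 fell by 1.34 (SE 0.40), the latter with overlapping arrays. Ddit4 was at 7.77, 6.86 and 7.39 in blood and at 5.74, 5.96 and 5.81 in P1 (-1.51, SE 0.27, adjusted p = 0.000231). Aldoa fell by 0.55 (SE 0.18) and the mitophagy receptor gene Bnip3l by 0.59 (SE 0.19). Lactate handling was not called, with Slc16a3 at 0.79 (SE 0.29, adjusted p = 0.0696) and Ldha at 0.36 (SE 0.17, adjusted p = 0.172). Adm was at 6.48 in replicate 2 of P1 and at 3.64 and 3.99 in the other replicates. The same array stood apart in the fibroblast list, at 9.98 against 6.20 and 6.84.

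Among further targets of HIF, 8 of 24 rose and 1 fell in P1. The transcriptional repressor gene Bhlhe40 rose by 2.78 (SE 0.29) and the lipid droplet gene Hilpda by 2.68 (SE 0.24). In glycogen metabolism 0 of 9 rose and 3 fell, the phosphorylase gene Pygl among them (-1.44, SE 0.26). When the means of the keratinocyte and fibroblast lists entered the fit, 1 of the 10 calls was kept, Vegfa (3.09, adjusted p = 0.001), while Slc2a1 was 1.35 (adjusted p = 0.28) and Hif1a 1.57 (adjusted p = 0.0611). Both lists were far higher in P1 than in blood, and their part in the result was not tested further. Leaving out 1 array ended 4 calls, each for more than 1 choice of array. Aldoa lost its call without blood replicate 2 (adjusted p = 0.131) or 3 (0.1) or P1 replicate 1 (0.137) or 3 (0.064), or with quantile normalization (0.0802). Bnip3l lost it without blood replicate 1 (0.0988), 2 (0.0896) or 3 (0.08) or P1 replicate 1 (0.197) or 3 (0.125). Pfkl lost it without blood replicate 1 (0.077) or P1 replicate 2 (0.0516). Pfkfb4 lost it without blood replicate 1 (0.183) or 3 (0.088) or P1 replicate 2 (0.0948) or 3 (0.0882). With only P1 and blood in the limma fit, Pfkl (adjusted p = 0.1), Pfkfb3 (0.111), Pfkfb4 (0.133), Aldoa (0.0818) and Bnip3l (0.1575) were not called.

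Within the steady-state dermis few of the genes separated one population from the next. From P1 to P2 the regulator Hif1a fell, by 0.93 (SE 0.22, adjusted p = 0.0181), from 9.0, 8.67 and 8.86 to 8.03, 7.75 and 7.98. It was the 1 gene of 31 called (3.23%, against 2.09% of all genes, 1.34% higher and 0.742% lower). The call was lost without P1 replicate 1 (adjusted p = 0.0724) or 3 (0.0591) or P2 replicate 2 (0.0887), or with array medians centred (0.0637). Its level was 7.43 in P3, 7.52 in P4 and 7.49 in P5, and 7.46 in dermal DC. Vegfa did not pass between P1 and P2 (-0.15, SE 0.25). Among further HIF targets, Hilpda (1.18, SE 0.24) and the stress gene Ndrg1 (1.2, SE 0.24) rose in P2, 2 of 24.

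From P2 to P3 limma called 0 of 31 genes, against 0.371% of all genes, 0.176% higher and 0.196% lower; at an unadjusted p under 0.05 there were 6, 19.4% against 8.93% of all genes. The change nearest to the threshold was that of Hk3, a hexokinase of myeloid cells (0.90, SE 0.23, adjusted p = 0.0745). Slc16a3 went from 8.58, 8.94 and 8.33 to 7.66, 7.82 and 7.63 with no overlap, which did not pass (-0.91, SE 0.29, adjusted p = 0.197).

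Dermal DC differed from P3 in 2 isoenzymes (6.45%, against 1.8% of all genes, 0.747% higher and 1.05% lower). Aldoc, an aldolase best known from brain, was at 7.42, 8.33 and 8.27 in dermal DC and at 5.32, 6.60 and 5.70 in P3 (2.13, SE 0.33, adjusted p = 0.000249). Hk3 was lower in dermal DC, at 5.00, 5.59 and 4.97 against 6.45, 6.14 and 6.42 (-1.15, SE 0.23, adjusted p = 0.00319). The partner isoenzymes were not called, with Hk1 at -0.08 (SE 0.18) and Hk2 at -0.43 (SE 0.35). Dermal DC had the highest Aldoc of the 13 populations, at 8.0. The neuronal-type glucose transporter gene Slc2a3, outside the list, also rose (1.70, SE 0.26).

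Of the macrophage-like sorts, P5 had less Pfkp than P3, at 6.85, 7.31 and 7.03 against 8.24, 8.04 and 8.15 (-1.08, SE 0.16, adjusted p = 0.000145), the 1 call of 31 (3.23%, against 1.25% of all genes, 0.557% higher and 0.697% lower). Vegfa and Slc16a3 were -0.93 (SE 0.25, adjusted p = 0.0724) and -1.0 (SE 0.29, adjusted p = 0.0983) in the same comparison and did not pass. P5 had more Aldoc than P4, at 6.77, 6.48 and 6.71 against 4.82, 4.74 and 4.55 (1.95, SE 0.33, adjusted p = 0.00147), again 1 call of 31 (3.23%, against 0.492% of all genes, 0.291% higher and 0.201% lower). In P4, Slc2a1 was at 7.29, 7.10 and 7.76, the lowest dermal level. When only the arrays of each comparison were fitted, 0 genes were called for P2 against P1, dermal DC against P3 and P5 against P3, with adjusted p of 0.103 for Hif1a, 0.0978 for Aldoc, 0.0902 for Hk3 and 0.11 for Pfkp.

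**Figure D2:**
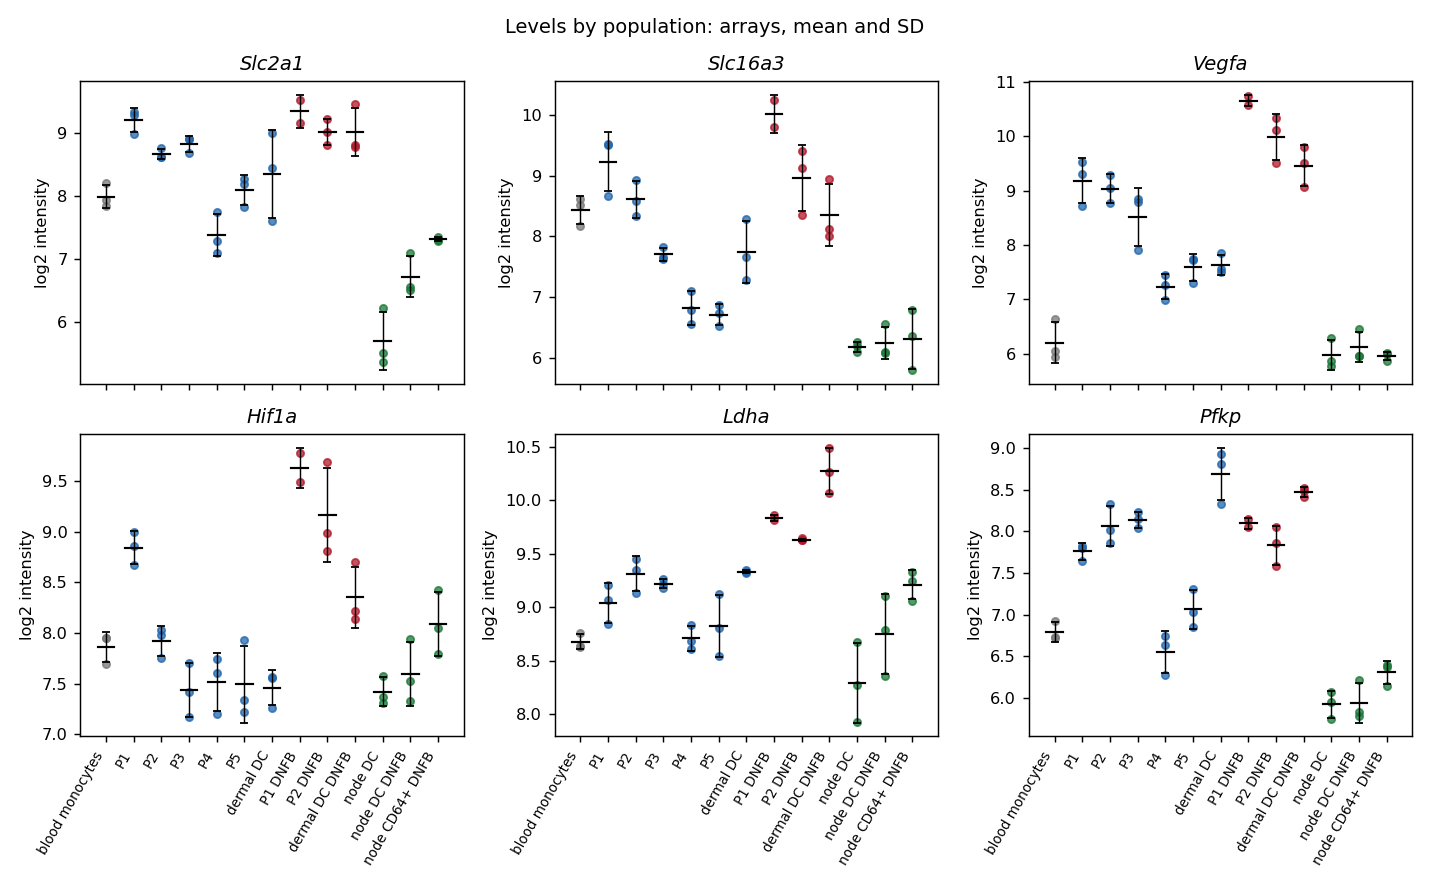
Log2 intensity of Slc2a1, Slc16a3, Vegfa, Hif1a, Ldha and Pfkp in each of 13 populations; points are arrays, the wide tick is the mean and the bar the standard deviation (SD). Vegfa is near 6 in blood and in the 9 node arrays and between 7.0 and 10.73 in dermal arrays, and Hif1a is highest in P1 and P2 after DNFB.

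DNFB raised Vegfa in each of the 3 dermal populations sorted in both states. In P1 the arrays were at 9.53, 9.31 and 8.72 before and at 10.73 and 10.58 after (1.47, SE 0.28, adjusted p = 0.00874). In P2 they went from 9.30, 9.05 and 8.77 to 10.34, 9.52 and 10.12 (0.95, SE 0.25, adjusted p = 0.0435). The largest change was in dermal DC, from 7.85, 7.5 and 7.56 to 9.52, 9.06 and 9.80 (1.82, SE 0.25, 3.54-fold, adjusted p = 2.14e-05). In none of the 3 populations did treated and untreated arrays overlap. Vegfa was picked by its calls on the same arrays, so the lack of overlap adds no support. In node DC Vegfa was not called, at 5.86, 6.29 and 5.78 before and 5.97, 6.45 and 5.95 after (0.14, SE 0.25). The effect in node DC minus that in dermal DC was -1.68 (SE 0.36, adjusted p = 0.0113), a test of the difference itself.

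Hif1a moved the same way in the skin. It rose in P2, from 8.03, 7.75 and 7.98 to 8.99, 8.81 and 9.69 (1.25, SE 0.22, adjusted p = 0.00116), and in dermal DC, from 7.56, 7.26 and 7.56 to 8.22, 8.14 and 8.70 (0.89, SE 0.22, adjusted p = 0.0133). P1 arrays went from at most 9.0 to 9.77 and 9.49, which did not pass (0.79, SE 0.24, adjusted p = 0.159). The prolyl hydroxylase genes were not called: Egln1 was 0.21, -0.08 and -0.41 and Egln3 was -0.45, 0.45 and 0.24 in P1, P2 and dermal DC.

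Among the enzymes Ldha and Pgk1 rose and Aldoc fell, each in some of the populations. Ldha, which turns pyruvate into lactate, rose in P1 from 9.21, 9.07 and 8.84 to 9.82 and 9.86 (0.80, SE 0.18, adjusted p = 0.0382). In dermal DC it rose from 9.34, 9.32 and 9.33 to 10.27, 10.06 and 10.49 (0.94, SE 0.17, adjusted p = 0.000444), its highest level in the series. In P2 it was 0.32 (SE 0.17, adjusted p = 0.463), although the 3 treated arrays, at 9.62, 9.62 and 9.64, lay above the untreated ones at 9.45, 9.35 and 9.13. Pgk1, which makes the first ATP of the pathway, rose in P2 from 9.12, 9.39 and 8.90 to 9.88, 9.69 and 9.85 (0.67, SE 0.17, adjusted p = 0.0365). Aldoc fell in dermal DC, from 7.42, 8.33 and 8.27 to 6.63, 6.08 and 6.56 (-1.58, SE 0.33, adjusted p = 0.00362). Ddit4 rose in dermal DC, from 5.79, 5.94 and 6.24 to 7.45, 7.16 and 7.2 (1.28, SE 0.27, adjusted p = 0.00338), and its effect in node DC minus that in dermal DC was -1.60 (SE 0.38, adjusted p = 0.0254).

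In counts, 2 of the 31 genes rose and 0 fell in P1 after DNFB (6.45%, against 0.637% of all genes, 0.562% higher and 0.0752% lower). In P2, 3 rose and 0 fell (9.68%, against 2.02% of all genes, 1.02% higher and 0.998% lower). In dermal DC, 4 rose and 1 fell (16.1%, against 4.16% of all genes, 2.11% higher and 2.06% lower). In node DC, 1 rose and 0 fell (3.23%, against 1.34% of all genes, 0.903% higher and 0.441% lower). The medians over the 31 genes were 0.29, 0.14, 0.04 and -0.08, against 0.01, 0.03, 0.02 and 0.01 over all genes. The node call was Slc2a1, from 5.50, 6.22 and 5.37 to 6.55, 6.50 and 7.09 (1.02, SE 0.25, adjusted p = 0.0355). In the skin Slc2a1 was 0.14 (SE 0.28) in P1, 0.35 (SE 0.25) in P2 and 0.67 (SE 0.25) in dermal DC, none of them called. The difference of its node and dermal DC effects was 0.35 (SE 0.36, adjusted p = 0.873). Between dermal DC and P2 the effect of DNFB differed for 0 of 31 genes in limma (0.251% of all genes, 0.13% higher and 0.12% lower), with 6 at an unadjusted p under 0.05, 19.4% against 6.07% of all genes. Between node and dermal DC it differed for 2 of 31 (6.45%, against 1.31% of all genes, 0.813% higher and 0.497% lower).

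Of the wider lists, the arginase gene Arg1 rose in P1 (2.18, SE 0.23) and in P2 (1.03, SE 0.20), in each the 1 call among 24 further HIF targets. In dermal DC the heme oxygenase gene Hmox1 fell by 2.31 (SE 0.35), as did Slc2a3 by 1.57 (SE 0.26) and, at the entry of pyruvate into mitochondria, Pdk2 by 1.21 (SE 0.29) and Pdp1 by 1.13 (SE 0.30). In node DC the 1 call among 9 glycogen genes was Pygl, which rose by 1.68 (SE 0.26).

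Several of these calls ended when 1 array was left out or when the scaling was changed. With array medians centred, Ldha in P1 (adjusted p = 0.0638), Vegfa (0.064) and Pgk1 (0.0646) in P2, Hif1a in dermal DC (0.0647), Slc2a1 in node DC (0.0733) and the Ddit4 difference of effects (0.0634) were no longer called. With only the arrays of each comparison in the fit, 0 genes were called for P1, P2 and node DC (Vegfa in P1, adjusted p = 0.412; Hif1a in P2, adjusted p = 0.11). In P1, Vegfa lost its call without untreated replicate 3 (adjusted p = 0.0577) or treated replicate 1 (0.166) or 2 (0.051), and Ldha without untreated replicate 2 (0.0569) or 3 (0.133) or treated replicate 1 (0.259) or 2 (0.19). In P2, Vegfa lost it without untreated replicate 2 (0.108) or 3 (0.189) or treated replicate 1 (0.174) or 3 (0.149). Pgk1 in P2 lost it without untreated replicate 1 (0.0954) or 3 (0.189) or treated replicate 1 (0.101), 2 (0.0653) or 3 (0.116). Hif1a in dermal DC lost it without untreated replicate 2 (0.0778) or treated replicate 3 (0.117). Slc2a1 in node DC lost it without untreated replicate 1 (0.172) or 3 (0.22) or treated replicate 1 (0.0709), 2 (0.0506) or 3 (0.199). The Ddit4 difference of effects lost it without dermal DC replicate 1 (0.0757) or 2 (0.0518) at steady state or 1 (0.0813) after DNFB, or without node DC replicate 1 (0.0557) or 2 (0.0605) at steady state or 1 (0.0505), 2 (0.0571) or 3 (0.057) after DNFB.

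Markers of other cells differed with the treatment. The keratinocyte list went from 7.17 to 7.79 in P2 to 5.59 to 7.28 after DNFB, and from 6.29 to 6.84 in dermal DC to 4.93 to 5.82. The neutrophil list went from 4.31 to 4.61 in P2 to 4.98 to 5.54, and the T cell list from 4.26 to 4.55 in dermal DC to 5.00 to 5.25. With the keratinocyte and fibroblast means as covariates, both P1 calls and 4 of 5 dermal DC calls were kept, Vegfa at 1.67 (adjusted p = 0.000872), and 0 of 3 in P2, where Vegfa was 0.88 (adjusted p = 0.273) and Hif1a 0.98 (adjusted p = 0.0824). In dermal DC, Hif1a was 0.65 (adjusted p = 0.159). In dermal DC the macrophage list went from 8.19 to 8.53 to 7.02 to 7.5 (5 of 11 genes fell and 1 rose), the monocyte list from 6.54 to 6.90 to 7.15 to 7.57 (3 of 9 rose and 1 fell), and 5 of 10 dendritic cell genes rose and 1 fell. The part of these 5 lists in the result was not tested.

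**Figure D3:**
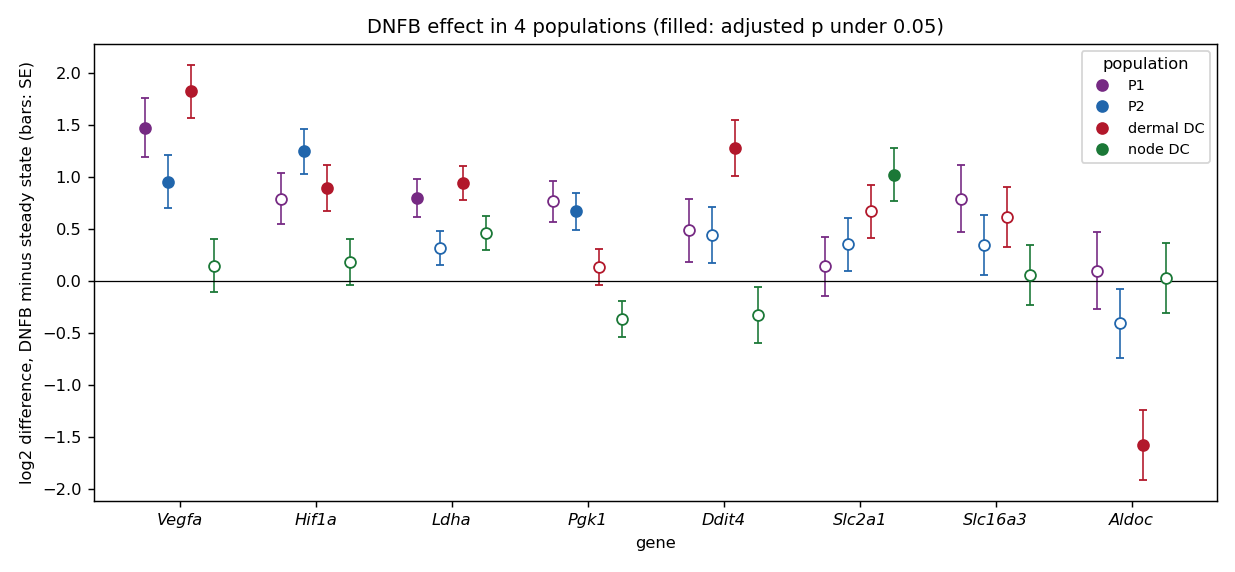
Log2 difference between DNFB and steady state for 8 genes in P1, P2, dermal DC and node DC; bars are the SE and filled points passed an adjusted p under 0.05. Vegfa is filled in the 3 dermal populations, at 1.47, 0.95 and 1.82, and at 0.14 in node DC, while Slc2a1 is filled in node DC alone of these 4, at 1.02.

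The widest differences of these genes lay between the lymph node and the skin. Node DC had far less RNA for glucose uptake, hexokinase 2, Pfkp and lactate export than dermal DC, and far more for Pfkfb3, Eno2 and Adm. At steady state 4 of 31 genes were higher in node DC and 11 lower (48.4%, against 20.3% of all genes, 10.1% higher and 10.1% lower), with a median of -0.45 against 0.05 over all genes. After DNFB 3 were higher and 12 lower (48.4%, against 17.5% of all genes, 8.44% higher and 9.04% lower), with a median of -0.42 against 0.04. The 2 comparisons share no array. Of the genes called, 13 were called in the same direction in both (86.7% of each list), 3 higher and 10 lower; over all genes the shared calls were 58.7% of the first and 68.0% of the second list.

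Both transporter genes of the list were lower in node DC. Slc2a1 was at 8.45, 7.61 and 9.0 in dermal DC and at 5.50, 6.22 and 5.37 in node DC, a fall of 6.31-fold (-2.66, SE 0.25, adjusted p = 2.11e-09). After DNFB it was at 8.81, 8.79 and 9.47 against 6.55, 6.50 and 7.09 (-2.31, SE 0.25, adjusted p = 3.85e-08). The lactate exporter Slc16a3 was at 7.67, 7.28 and 8.29 against 6.19, 6.26 and 6.10 at steady state (-1.56, SE 0.29), and at 8.13, 8.0 and 8.94 against 6.08, 6.09 and 6.55 after DNFB (-2.11, SE 0.29). The arrays of skin and node did not overlap for either gene, which adds no support, as both were called on these arrays. Slc2a3, a second glucose transporter gene outside the list, fell by 1.94 (SE 0.26) at steady state, where 4 of 8 further transporter genes fell and 0 rose; after DNFB 1 of 8 fell and 0 rose.

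At the steps below, an isoenzyme was called while its listed partners were not. Whether isoenzymes differed from each other was not tested. Hk2, the inducible hexokinase, was at 7.27, 6.50 and 7.10 in dermal DC and at 4.90, 4.21 and 4.89 in node DC (-2.29, SE 0.35, adjusted p = 9.15e-06), and fell by 2.63 (SE 0.35) after DNFB. Its node DC arrays lie around the array medians in both states, so these sizes are not exact. Hk1 did not pass at steady state (0.33, SE 0.18) or after DNFB (-0.13, SE 0.18), nor did Hk3 (-0.53 and -0.23, SE 0.23). Pfkp, at 8.81, 8.93 and 8.33 against 5.75, 5.96 and 6.07, had the smallest adjusted p of the 31 (-2.76, SE 0.16, adjusted p = 4.65e-14). Its partners Pfkl (0.34, SE 0.21) and Pfkm (-0.09, SE 0.23) were not called. Aldoc fell 11.7-fold (-3.55, SE 0.33, adjusted p = 1.56e-09), with arrays at 4.72, 4.05 and 4.59 in node DC. These lie around the array medians (4.39 to 4.65), so the fold is not exact. Aldoa, the aldolase of most tissues, was 0.12 (SE 0.18, adjusted p = 0.725).

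Pfkfb3 had the largest rise among the listed enzymes, at 8.31, 7.90 and 8.30 in dermal DC and 11.15, 11.52 and 11.33 in node DC (3.16, SE 0.27, 8.96-fold, adjusted p = 2.91e-10). After DNFB it was at 8.25, 8.26 and 8.21 against 11.04, 11.08 and 11.17 (2.86, SE 0.27). Pfkfb4 was not called (-0.75, SE 0.40, adjusted p = 0.223). Eno2, the neuron-type enolase, was at 4.36, 4.86 and 4.17 against 6.94, 6.91 and 7.81 (2.76, SE 0.34, adjusted p = 2.64e-07) and rose by 2.24 (SE 0.34) after DNFB. At steady state dermal Eno2 lay around the array medians, so that size is not exact. The muscle-type enolase gene Eno3, outside the list, rose with it by 4.43 (SE 0.37) and 3.46 (SE 0.37). Among the later enzymes Pgam1 fell by 1.35 (SE 0.21) and 0.93 (SE 0.21), with node arrays at 7.48, 7.68 and 7.39 at steady state. Pkm, pyruvate kinase, fell by 0.67 (SE 0.19) and 1.02 (SE 0.19).

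Of the 7 hypoxia targets 1 rose and 2 fell at steady state, where 10.1% of all genes were higher and 10.1% lower. After DNFB 1 rose and 3 fell, against 8.44% of all genes higher and 9.04% lower. The lactate dehydrogenase gene Ldha fell in both states. Ldha was at 9.34, 9.32 and 9.33 in dermal DC and at 7.93, 8.27 and 8.67 in node DC (-1.04, SE 0.17, adjusted p = 1.52e-05), and fell by 1.52 (SE 0.17) after DNFB. Pdk3, a kinase that shuts pyruvate dehydrogenase, was higher in node DC at steady state, at 8.83, 8.80 and 8.63 against 7.44, 7.69 and 7.74 (1.13, SE 0.31, adjusted p = 0.00889), and was 0.52 (SE 0.31, adjusted p = 0.333) after DNFB. Vegfa fell by 1.66 (SE 0.25, adjusted p = 9.15e-06) at steady state and by 3.34 (SE 0.25, 10.1-fold, adjusted p = 2.4e-11) after DNFB. The collagen prolyl hydroxylase gene P4ha1 fell by 0.91 (SE 0.23) and 0.92 (SE 0.23). Adm ran the other way, at 3.64, 4.59 and 3.59 in dermal DC and 6.40, 7.23 and 7.77 in node DC (3.20, SE 0.49, adjusted p = 8.18e-06); its dermal mean of 3.94 is low signal, so the size is not exact. After DNFB it rose by 2.97 (SE 0.49).

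The gene of the HIF-1 alpha subunit itself was not called at steady state. Hif1a did not pass at steady state (-0.04, SE 0.22, adjusted p = 0.94) and fell after DNFB, where dermal DC had risen, at 7.53, 7.32 and 7.94 against 8.22, 8.14 and 8.70 (-0.75, SE 0.22, adjusted p = 0.0136). Egln1 fell at steady state (-0.80, SE 0.22, adjusted p = 0.00752) and was -0.34 (SE 0.22) after DNFB. Vhl, the ubiquitin ligase component that removes HIF alpha subunits, rose by 2.23 (SE 0.27) and 2.07 (SE 0.27), while Arnt, the HIF partner subunit, fell by 0.51 (SE 0.18) and 0.81 (SE 0.18). Ddit4 was 0.31 (SE 0.27) at steady state and fell by 1.29 (SE 0.27) after DNFB.

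Further HIF targets also fell more often than they rose, 9 against 1 of 24 at steady state and 7 against 1 after DNFB. Over all genes 10.1% were lower and 10.1% higher at steady state, and 9.04% and 8.44% after DNFB. Hilpda differed by -4.11 (SE 0.24) and -4.08 (SE 0.24), and Hmox1 by -4.34 (SE 0.35) and -2.51 (SE 0.35). The cyclin gene Ccng2 rose by 1.86 (SE 0.38) and 2.09 (SE 0.38).

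Of the macrophage list 9 of 11 genes fell in each state, from array means of 8.19 to 8.53 to 4.59 to 4.91 at steady state and from 7.02 to 7.5 to 4.44 to 4.84 after DNFB. Of the monocyte list 3 of 9 fell at steady state and 6 of 9 after DNFB. The dendritic cell list was lower in node DC too, at 7.03 to 7.08 against 7.92 to 8.04 at steady state. After DNFB it was at 7.26 to 7.51 against 8.66 to 8.99. Its genes went both ways: at steady state Cd209a was at 4.47 in node DC against 10.97, and Flt3 at 9.74 against 8.73. The part of these lists in the result was not tested. The keratinocyte list was lower in node DC (4.26 to 4.48) than in dermal DC (6.29 to 6.84 before and 4.93 to 5.82 after DNFB). With that list and the fibroblast list as covariates 13 of 15 steady-state calls and 15 of 15 after DNFB were kept; Pkm (-0.45, adjusted p = 0.354) and Pdk3 (0.37, adjusted p = 0.646) were lost, while Slc2a1 was -2.92 and Pfkfb3 3.00. Leaving out 1 array ended 3 calls. At steady state Pkm was lost without dermal DC replicate 2 (adjusted p = 0.0595) or node DC replicate 3 (0.0761), and Egln1 without dermal DC replicate 3 (0.0641). After DNFB Hif1a was lost without dermal DC replicate 3 (0.12) or node DC replicate 1 (0.0505) or 2 (0.0953).

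**Figure D4:**
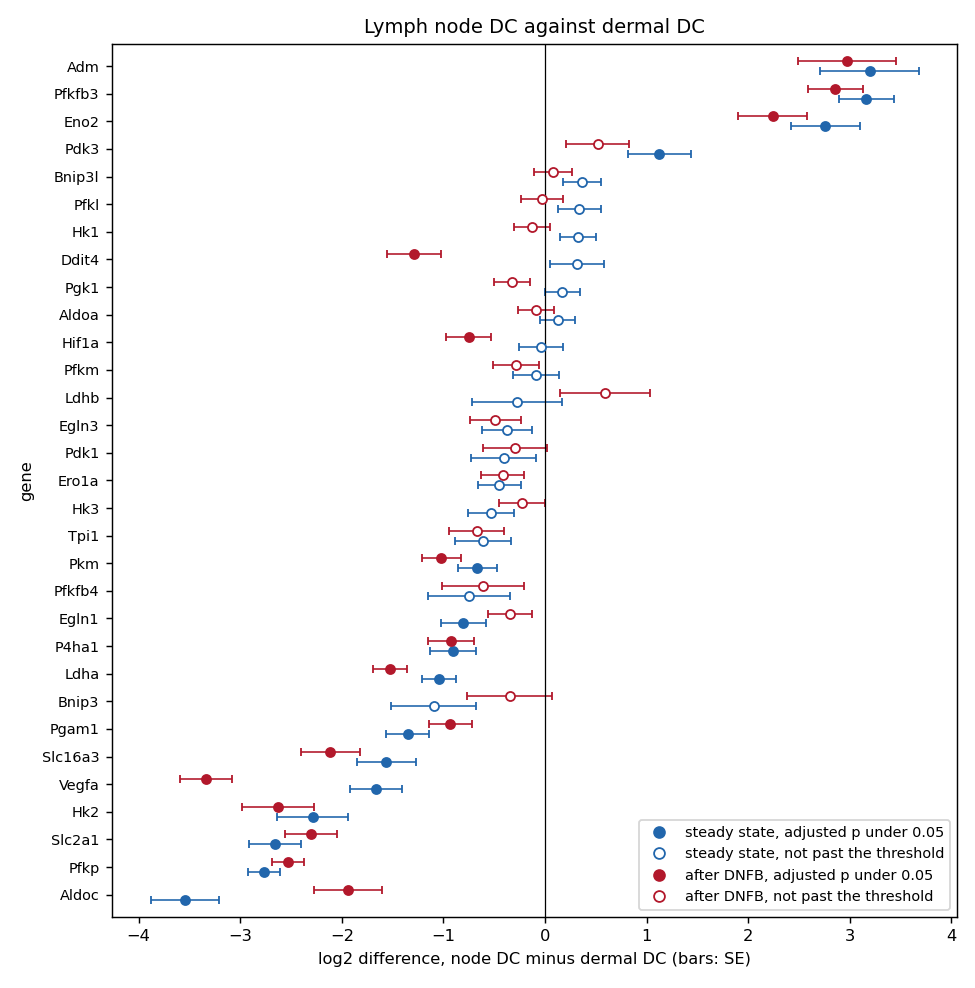
Log2 difference between node DC and dermal DC for each of 31 genes at steady state and after DNFB; bars are the SE and filled points passed an adjusted p under 0.05. Adm, Pfkfb3 and Eno2 lie far to the right in both states, at 2.24 or more, and Vegfa, Pfkp, Hk2, Slc2a1 and Aldoc far to the left, at -1.66 or less.

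**Figure D5:**
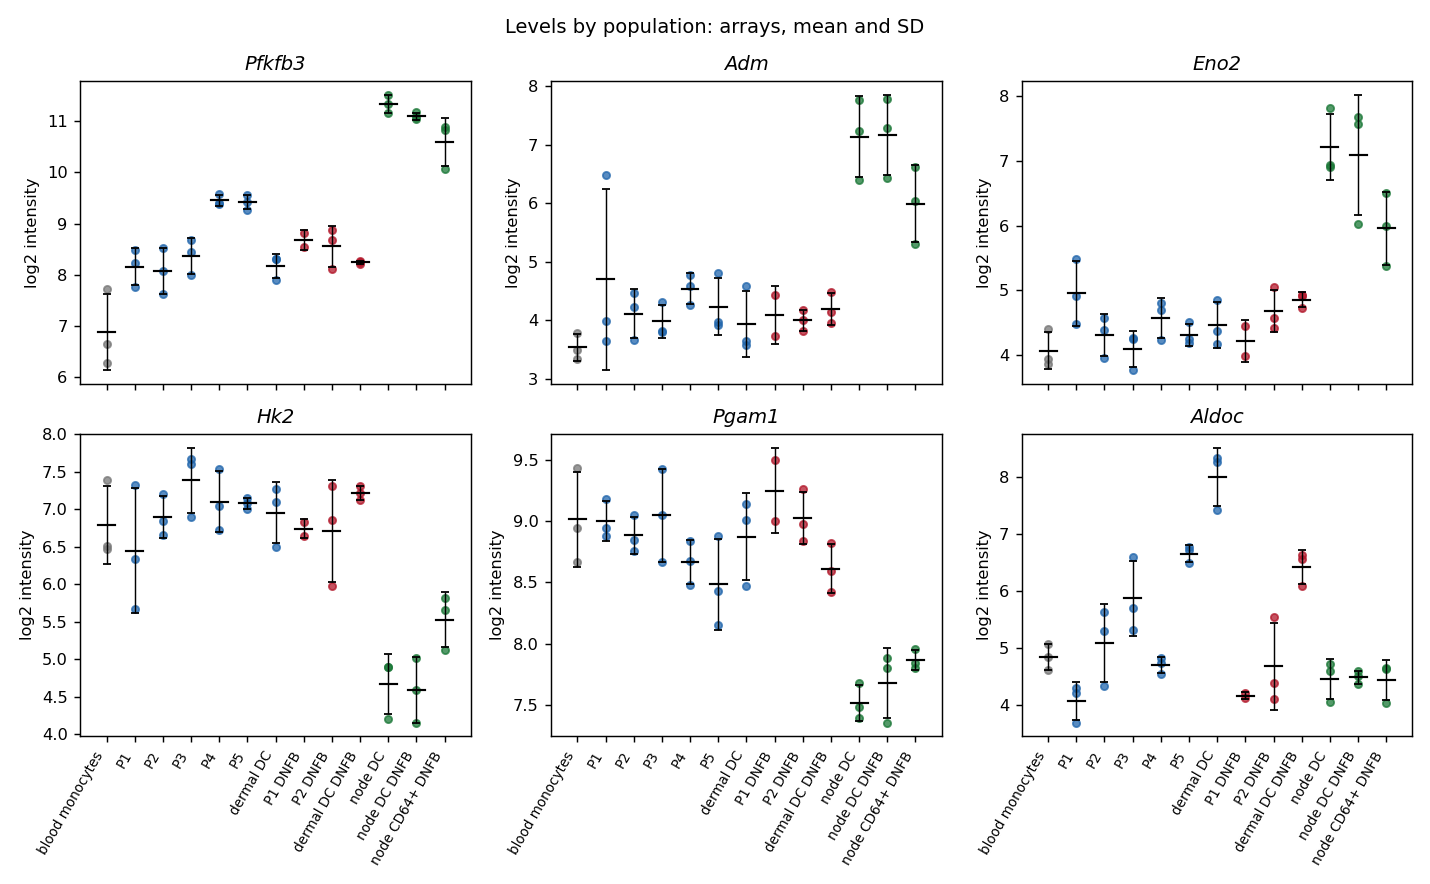
Log2 intensity of Pfkfb3, Adm, Eno2, Hk2, Pgam1 and Aldoc in each of 13 populations; points are arrays, the wide tick is the mean and the bar the SD. The 9 node arrays of Pfkfb3, at 10.06 to 11.52, lie above all others, those of Pgam1, at 7.36 to 7.96, lie below all others, and Aldoc is highest in dermal DC.

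Node CD64+ cells, like node DC, had less Vegfa, Slc16a3 and Slc2a1 and more Pfkfb3 than a dermal population. Compared with P2 after DNFB, the dermal CD64+ Ly6Chigh population, 4 of 31 genes were higher and 10 lower (45.2%, against 12.6% of all genes, 7.26% higher and 5.37% lower), with a median of -0.27 against -0.02. Of these 14 calls 11 were also called in the same direction between node DC and dermal DC at steady state (78.6% of the 14 and 73.3% of the 15; 64.3% and 40% over all genes), and 12 after DNFB (85.7% and 80.0%; 69.2% and 50%). Vegfa had the largest difference, at 5.87, 5.99 and 6.01 against 10.34, 9.52 and 10.12 in P2 (-4.04, SE 0.25, 16.4-fold, adjusted p = 8.83e-13). Slc16a3 was at 6.78, 6.35 and 5.80 against 9.40, 8.36 and 9.13 (-2.65, SE 0.29), Slc2a1 fell by 1.71 (SE 0.25), Pfkp by 1.53 (SE 0.16) and Hk2 by 1.19 (SE 0.35). Pfkfb3 was at 10.90, 10.82 and 10.06 against 8.67, 8.11 and 8.88 (2.04, SE 0.27, adjusted p = 1.95e-06). Adm rose by 1.99 (SE 0.49), Pdk3 by 1.54 (SE 0.31) and Eno2 by 1.28 (SE 0.34). In P2 after DNFB the mean of Adm, 3.997, is low signal, and that of Eno2, 4.68, is near the array medians. The sizes for Adm and Eno2 are therefore not exact. Skin and node arrays did not overlap for any of the 14. These genes were picked by their calls on the same arrays, so the lack of overlap adds no support. Ldha was not called here (-0.42, SE 0.17, adjusted p = 0.107), nor was Aldoc (-0.24, SE 0.33), which is low in P2.

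Against node DC after DNFB, 2 genes were higher in node CD64+ cells and 1 lower (9.68%, against 4.82% of all genes, 3.82% higher and 1% lower). P4ha1 was at 6.50, 6.06 and 6.87 against 5.31, 5.09 and 5.59 (1.15, SE 0.23, adjusted p = 0.00115). Hk3 was at 5.32, 5.35 and 6.17 against 4.78, 5.25 and 4.48 (0.78, SE 0.23, adjusted p = 0.0426). Eno2 was at 6.50, 5.99 and 5.38 against 7.58, 6.02 and 7.68 (-1.14, SE 0.34, adjusted p just under the threshold), with overlapping arrays. Pfkfb3 was -0.50 (SE 0.27, adjusted p = 0.423) and Vegfa -0.17 (SE 0.25, adjusted p = 0.851). Hmox1, which is high in macrophages, rose by 3.56 (SE 0.35).

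Of the calls against P2, 8 of 14 were kept with the keratinocyte and fibroblast covariates; those lists were at 5.59 to 7.28 and 6.26 to 6.74 in P2 after DNFB and at 4.14 to 4.25 and 4.52 to 4.57 in node CD64+ cells. Lost were Ddit4, Eno2, Ero1a, Hk2, Pdk3 and Pkm. Of the sort markers 6 of 9 monocyte genes fell and 1 rose, 7 of 11 macrophage genes fell and 1 rose, and 7 of 10 dendritic cell genes rose and 2 fell; their part in the result was not tested. Hk2 was also lost without P2 replicate 1 (adjusted p = 0.155) or 3 (0.0781) or node CD64+ replicate 2 (0.136), Eno2 without P2 replicate 1 (0.0518) or node CD64+ replicate 1 (0.0959), Ddit4 without P2 replicate 1 (0.0737) or 2 (0.0689) or node CD64+ replicate 3 (0.134), and Ero1a without P2 replicate 3 (0.124) or node CD64+ replicate 1 (0.0825). Against node DC, Hk3 was lost without node DC replicate 1 (0.144) or 3 (0.179) or node CD64+ replicate 3 (0.427), and Eno2 without node DC replicate 1 (0.301) or 3 (0.204) or node CD64+ replicate 2 (0.101) or 3 (0.372). With the replicate number as a block 1 of these 3 calls remained, P4ha1, with Hk3 at an adjusted p of 0.0572 and Eno2 at 0.0612. Eno2 was also lost with array medians centred (0.0868), and Pkm against P2 with the mean of its probe sets (0.0632).

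Over the 13 population means, which share arrays and normalization and are given as description, some of the genes ran together and others opposite. Slc2a1 ran with Pgam1 (r = 0.89), Vegfa (0.87), Pfkp (0.87) and Slc16a3 (0.86). Adm ran with Eno2 (r = 0.98) and with Pfkfb3 (0.92). Means of Eno2 were 5.96 or more in node populations and 4.96 or less elsewhere. Those of Adm were 5.99 or more against 4.70 or less, so r values of either gene mainly restate that contrast. Opposite runs had r = -0.96 between Hk2 and Eno2, -0.90 between Pfkfb3 and Pgam1 and -0.79 between Slc2a1 and Pfkfb3. Node populations also stood apart in Pfkfb3 (10.59 or more, against 9.45 or less elsewhere) and Pgam1 (7.87 or less, against 8.49 or more). The same held for Hk2 (5.53 or less, against 6.44 or more) and narrowly for Slc2a1 (7.32 or less, against 7.38 or more). The r values of these genes thus also restate that contrast in large part. Hif1a ran with Slc16a3 (r = 0.79) and Vegfa (0.74). Others were only weakly related to Slc2a1 and Pfkfb3, such as Aldoa (r = -0.26 with Slc2a1 and -0.17 with Pfkfb3) and Pgk1 (0.13 and 0.03).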

How the data were processed

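The values are log2 intensities that the authors deposited for 34760 probe sets on 38 arrays; RMA and affy are named per the submitters' processing notes, and their versions are not given in the sources used here. RNA from 5000 to 10000 sorted cells was amplified before hybridisation, per the labels' protocols. The values ran from 1.65 to 13.8 and array medians from 4.39 to 4.65, and no further normalization was applied. Probe sets with 1 gene symbol (21640; 1321 had several, 11799 none) were reduced to the brightest per symbol, giving 19937 genes. One limma fit (limma 3.58.1, R 4.3.3) over 13 groups, with 25 residual degrees of freedom, gave 14 differences, 2 differences of effects and an F test, adjusted by Benjamini-Hochberg at 0.05; it was tested on simulated data. The number of arrays limits precision: an exact permutation test of 3 against 3 arrays cannot go below 0.1.

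The members and gene lists were chosen with earlier results of these data known. Named genes are, per comparison, up to 5 rises and 5 falls among called members by size, their isoenzymes, Hif1a, Egln1 and Egln3, and at most 3 called genes per wider list; array values are given for the 8 members of largest range and 2 more per comparison. Further called members, some uncalled ones and some array values outside this rule were chosen after their values were seen. The series was run in 3 chip batches whose arrays are not given in the sources used here, so a batch could not be fitted. Replicate numbers of the titles did not pair the arrays. Alternatives were other scaling, a filter on low values, the mean of probe sets, blocks, covariates, fits of only the groups compared and leaving out each array.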

Additional observations from a re-analysis of the deposited data

Results flagged for a closer look

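The effect of DNFB differed between node DC and dermal DC for 2 of the 31 genes, by limma's test of the difference of the effects. For Vegfa the difference was -1.679 (SE 0.36, adjusted p = 0.0113): it rose by 1.82 in dermal DC and was 0.14 in node DC. For Ddit4 the difference was -1.602 (SE 0.38, adjusted p = 0.0254): it rose by 1.28 in dermal DC and was -0.32 (SE 0.27) in node DC. The Ddit4 difference did not pass with array medians centred (adjusted p = 0.0634), with the keratinocyte and fibroblast covariates (0.0689) or without any of 8 single arrays.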

How the results depend on the processing

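Of 75 differences called among the 31 genes, none changed direction under the alternatives run. A random block on the number in the source names kept 75, the filter on low values 75, quantile normalization 74, the mean of probe sets 74, the replicate block 73, centred array medians 67, fits of only the groups compared 55 and the keratinocyte and fibroblast covariates 53. The counts of genes called moved by over 1.5 times as follows. With the replicate block, node CD64+ cells against node DC went from 3 to 1, and the block changed no other call. Arrays with the same title number did not deviate together (mean r = -0.0014 over 222 pairs, 23 of them over 0.1). For the number in the source names the mean r was 0.0199 over 143 same-numbered pairs (24 over 0.1) and -0.0055 over the others. Some source-name numbers occur only at steady state and others only after DNFB, so that number is partly confounded with treatment. With quantile normalization P3 against P2 went from 0 to 1 and P5 against P3 from 1 to 2, as the latter did with the low filter. With centred medians P2 against P1 went to 0, P3 against P2 to 1, DNFB in P2 to 1, DNFB in node DC to 0 and the node minus dermal effect to 1. With the covariates P1 against blood went from 10 to 1, DNFB in P2 from 3 to 0, node CD64+ cells against P2 from 14 to 9 and the node minus dermal effect from 2 to 1. With only the groups compared, P1 against blood went to 5, node CD64+ cells against node DC to 1, and P2 against P1, dermal DC against P3, P5 against P3, and DNFB in P1, P2 and node DC each to 0. Leaving out 1 array at a time gave 7 to 10 calls for P1 against blood, 0 to 2 for P2 against P1, 2 to 3 for dermal DC against P3, 1 to 3 for P5 against P3, 0 to 3 for DNFB in P1, 1 to 2 in P2, 4 to 6 in dermal DC and 0 to 1 in node DC. It gave 14 to 16 and 14 to 15 for node against dermal DC before and after DNFB, 1 to 3 and 12 to 14 for node CD64+ cells against node DC and against P2, and 1 to 2 for the node minus dermal effect. Over all genes, the covariates took the calls of P1 against blood from 2520 to 308, of P3 against P2 from 74 to 205, of DNFB in P1 from 127 to 257 and in P2 from 402 to 164, and of node CD64+ cells against P2 from 2517 to 1633. Fits of only the groups compared took P1 against blood to 1343, P2 against P1 from 416 to 62, P3 against P2 to 19, dermal DC against P3 from 358 to 101, P5 against P3 from 250 to 18, P5 against P4 from 98 to 19, DNFB in P1 to 1 and in P2 to 80, the dermal DC minus P2 effect from 50 to 22 and the node minus dermal effect from 261 to 419. Centring moved the share of called genes that were higher from 41.2% to 29.1% for P1 against blood, 50.6% to 35.5% for DNFB in dermal DC, 50.1% to 37.6% for node against dermal DC at steady state, 52% to 40% for the dermal DC minus P2 effect and 62.1% to 73.1% for the node minus dermal effect. Fits of only the groups compared have fewer arrays, and the cause of none of these shifts was tested. Low signal limits Egln3 and Adm, and levels around the array medians limit Aldoc and Hk2 in node DC and Eno2 in dermal DC and P2.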

Other observations

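Of 9 measured glycogen genes, 4 rose, 0 fell and 5 did not pass in node DC against dermal DC at steady state and after DNFB, and likewise in node CD64+ cells against P2, where 10.1%, 8.44% and 7.26% of all genes were higher. The mean of the list was highest in blood monocytes (7.05), with 6.81 and 6.98 in node DC before and after DNFB, 6.91 in node CD64+ cells and 6.08 in dermal DC. Gyg, the primer of glycogen synthesis, rose by 2.22, 1.90 and 1.84, and Pygl, a glycogen phosphorylase, by 1.77, 2.63 and 1.82. Eno3 was at 10.36 in node DC, 10.00 in node DC after DNFB and 9.40 in node CD64+ cells, against 5.93 in dermal DC. Vhl was at 10.05, 9.67 and 9.10 in the same node populations.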
